A study of Mus musculus with 2 samples.

Results

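Car9, Bnip3, Vegfa, Egln3, Ndrg1, Adm, Ankrd37 and Ddit4 are 8 genes known to be induced when cells run short of oxygen, and they were taken by name from the 19465 genes counted in 2 sections of mouse melanoma. All 8 were present in the counts of both sections, with 965 to 36880 unique molecular identifiers (UMIs, counts of captured probe molecules) per gene and section. They were chosen by name, with earlier results of these data known, so shares of all genes set beside them below are descriptions only.

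Oxygen is sensed through hypoxia-inducible factors (HIFs). In oxygenated cells, prolyl hydroxylases of the Egln family mark the HIF alpha subunits, the Vhl protein binds the marked form, and the subunits are destroyed. When oxygen falls, HIF alpha persists, pairs with Arnt and binds short DNA motifs beside its target genes, which shift cells toward glycolysis, handle the acid this makes, recruit vessels and slow growth. In solid tumours such genes are typically used as markers of zones far from perfused vessels.

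Gene expression was mapped with Visium CytAssist, in which gene-specific probe pairs are ligated on fixed tissue and moved to a grid of barcoded capture spots. The tumours grew from the melanoma line B16.F10, which makes pigment, in untreated mice 8 to 16 weeks old, were taken on day 15 and were cut at 10 µm from paraffin blocks. The WT section came from a Csnk2bfl/fl mouse, which the labels call wild-type and which carries the floxed allele with no Cre. Its KO counterpart came from a Foxp3-Cre × CK2b-fl/fl mouse, in which Cre driven by Foxp3 deletes the floxed gene in regulatory T cells, so the tumour cells keep it in both groups. The sections are called WT and KO below. There was 1 section per genotype, so no difference between sections has a replicate check and no test across samples was possible. Ratios carry 95% intervals that cover counting error only. A spot can hold several cells, and fewer cells of a type and less RNA per cell cannot be told apart.

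The WT section had 3066 spots and 88735936 UMIs, with a median of 26818.5 per spot, and the KO section 2746 spots and 94422680 UMIs, with a median of 36769. Melanocytic markers (10 of 10 detected in both sections) gave 44560 CPM (UMIs of a gene or list scaled to the same total for every set of spots) in WT and 52439 in KO. Fibroblast markers (10 of 10 detected) differed most among the stromal lists, at 12609 CPM in WT and 1553 in KO, with quadrants from 791 to 40731 in WT and 438 to 5216 in KO. Endothelial markers (13 genes) stood at 637 and 476 CPM, T cell markers (16 genes) at 36.9 and 97.3, macrophage markers (10 genes) at 1060 and 699 and neutrophil markers (6 genes) at 16.9 and 16.2, each in the order WT, KO. Counts of 4 Y-linked genes summed to 0 UMIs in WT and 1477 in KO, and the labels give no sex. Csnk2b stood at 392 CPM in each section, which does not check a deletion limited to regulatory T cells, and Foxp3 had 32 and 51 UMIs. The part of these differences in the results below was not tested except where a value is given beside the result.

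HIF is known to bind a core of 5 letters, which is either the run ACGTG or, with a different first letter, the run GCGTG. RefSeq promoter windows for build GRCm38.p6, which mm10 denotes, were matched for 7 of the 8 genes, with 8 windows since Vegfa has 2. The 250 bases before the annotated start held a core on either strand (the letter run ACGTG reads as CACGT from the other strand, and the run GCGTG reads there as CACGC) in 7 of the 8 windows, against 38.6% of all 32851 promoters of that length. The window at the outermost Vegfa start held none, which says only that these letters are not in it. The other Vegfa window (chr17:46025164-46025413) and that of Ankrd37 (chr8:45999851-46000100) lie inside the gene spans given below, not before them. Windows of the gene around which the set is built, of the gene with the most cores and of the gene that departs from the others are shown, with cores in capitals; overlapping cores are counted separately.
Car9, chr4:43506776-43507025, + strand, 1 core: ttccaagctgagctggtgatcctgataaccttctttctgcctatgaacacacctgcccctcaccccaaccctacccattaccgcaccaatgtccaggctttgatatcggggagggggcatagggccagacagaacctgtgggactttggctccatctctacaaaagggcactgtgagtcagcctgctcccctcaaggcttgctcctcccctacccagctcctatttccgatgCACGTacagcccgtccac
Bnip3, chr7:138909507-138909756, - strand, 5 cores: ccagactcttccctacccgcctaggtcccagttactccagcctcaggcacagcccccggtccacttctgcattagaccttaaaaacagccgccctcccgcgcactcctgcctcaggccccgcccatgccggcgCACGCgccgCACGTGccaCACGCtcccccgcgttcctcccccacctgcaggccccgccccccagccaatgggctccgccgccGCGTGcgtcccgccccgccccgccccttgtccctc
Egln3, chr12:54203875-54204124, - strand, 1 core: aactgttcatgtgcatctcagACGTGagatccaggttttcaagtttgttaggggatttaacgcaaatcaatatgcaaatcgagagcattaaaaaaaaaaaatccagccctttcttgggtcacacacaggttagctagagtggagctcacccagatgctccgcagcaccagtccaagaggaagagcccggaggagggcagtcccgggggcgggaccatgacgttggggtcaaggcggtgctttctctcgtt
The core of Car9 began 18 bases before the start, and that of Egln3 229 bases before it. Ankrd37 had 4 cores and Adm and Ddit4 2 each. A core is a description of the letters and not a site of binding.

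Car9 encodes carbonic anhydrase 9, a membrane enzyme with a part in the handling of acid, and lies on chromosome 4 at 43507026 to 43513729. It stood at 140 CPM in WT, from 12460 UMIs, and at 391 CPM in KO, from 36880 UMIs. The 4 WT quadrants gave 231, 134, 170 and 73.8 CPM (upper left, upper right, lower left, lower right). The 4 KO quadrants gave 482, 266, 727 and 263 CPM, so every KO quadrant lay above every WT quadrant on this scale. The KO over WT ratio was 2.78 (2.73 to 2.84).

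Bnip3, a protein of the outer mitochondrial membrane that promotes mitophagy, lies on chromosome 7 at 138890836 to 138909506. It stood at 75.4 CPM in WT and 186 in KO, a ratio of 2.46 (2.39 to 2.53). Its WT quadrants gave 132, 65.0, 92.3 and 43.5 CPM and its KO quadrants 226, 156, 252 and 140, which did not overlap on this scale. Vegfa, the main growth factor for vessels, lies on chromosome 17 at 46016993 to 46032377. It stood at 163 and 367 CPM, a ratio of 2.25 (2.21 to 2.30), with WT quadrants of 213, 162, 154 and 141 and KO quadrants of 418, 287, 587 and 294. Scaling with TMM factors, which lowers every ratio by 0.22 on the log2 scale, put Vegfa at 1.94, under 2-fold, and left Car9 at 2.39 and Bnip3 at 2.12. In rim spots alone all 3 were under 2-fold, with log2 ratios of 0.85 for Car9, 0.61 for Bnip3 and 0.77 for Vegfa. Ddit4, an inhibitor of mTORC1 that is also induced by ATF4 and by glucocorticoids, lies on chromosome 10 at 59949675 to 59951770. It stood at 102 CPM in WT and 163 in KO (ratio 1.59, 1.55 to 1.64), with narrow quadrant ranges of 91.2 to 111 and 145 to 182.

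Ndrg1, Adm and Ankrd37 differed less between the sections than within them. Ndrg1, a stress-response protein on chromosome 15 (66929318 to 66969641), stood at 109 and 136 CPM, with quadrants of 80.4 to 135 in WT and 96.6 to 234 in KO. Adm, which encodes the vasodilator adrenomedullin (chromosome 7, 110627657 to 110629820), stood at 22.5 and 28.2 CPM, with quadrants of 10.9 to 43.3 and 13.9 to 59.7. Ankrd37, an ankyrin repeat protein and known HIF target (chromosome 8, 45996908 to 46000414), stood at 10.9 and 14.0 CPM, with quadrants of 5.24 to 23.0 and 10.4 to 19.98. Their ratios were 1.24, 1.26 and 1.29, and the quadrants of each overlapped. With every spot given equal weight the log2 ratio of Adm turned from 0.33 to -0.03.

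Egln3 encodes a HIF prolyl hydroxylase that is itself a HIF target, and lies on chromosome 12 at 54178981 to 54203874. It was the only one of the 8 lower in KO, at 21.9 CPM in the WT (1945 UMIs) and 12.1 in KO (1145 UMIs). The WT quadrants gave 57.3, 13.6, 31.3 and 5.24 CPM and the KO quadrants 12.4, 4.13, 34.0 and 10.0. The quadrants of the 2 sections overlapped widely, and each section spanned 10.9-fold (WT) or 8.23-fold (KO) within itself. The WT level was 1.81-fold the KO level (1.68 to 1.95), less than the spread inside either section.

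**Figure D1:**
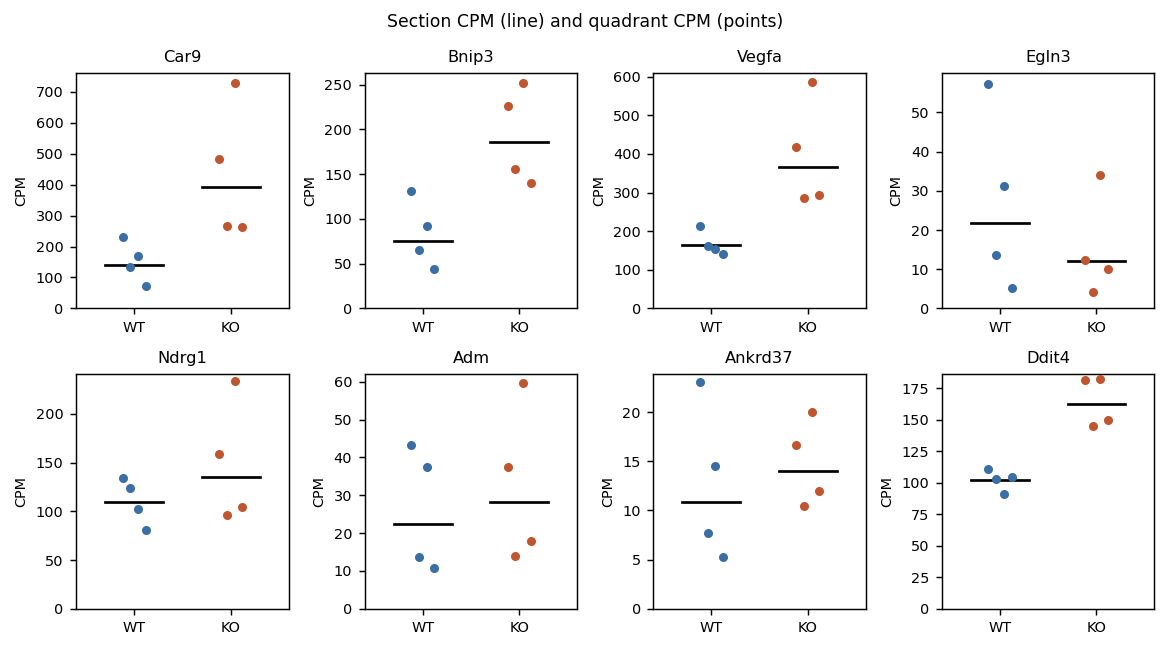
CPM of the 8 genes in each section, with a line for the section total and 4 points for the quadrants of that section; each panel has its own axis from 0. The KO points of Car9, Bnip3, Vegfa and Ddit4 all lie above the WT points on the CPM scale (with TMM factors those of Car9 and Bnip3 overlap), and those of Egln3 overlap, from 5.24 to 57.3 CPM in WT and 4.13 to 34.0 in KO.

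Of the 8 genes, 7 had a ratio above 1, against 51.7% of the 10374 genes with at least 500 UMIs in either section. On the CPM scale a ratio of at least 2 was reached by 3 genes (Car9, Bnip3 and Vegfa), against 0.839% of all genes. None was at least 2-fold lower on that scale, against 5.06%. With TMM factors the ratio of Egln3 was 0.476, which is at least 2-fold lower. The share of all genes that low with TMM factors was not computed. On the CPM scale KO quadrants all lay above WT quadrants for 4 genes, against 18.2%. With TMM factors 2 of the 4 remained apart (Vegfa and Ddit4), against 5.77% of genes: the lowest KO quadrants of Car9 and Bnip3, at 226 and 121, were then below the highest WT quadrants of 231 and 132. TMM factors left 7 of the 8 ratios above 1, against 28.8% of genes. The median log2 ratio of the 8 was 0.52, against 0.02 over all genes. These shares describe 2 libraries.

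Within the melanocytic-rich spots 8 of the 8 genes were higher in KO, Egln3 included, against 50% of genes. With TMM factors, which put 26.1% of genes higher there, Ndrg1 turned from 1.12 to 0.963 and 7 of the 8 were higher. Melanocytic-rich spots drew at least 4.83% of their UMIs from the melanocytic list, the median over both sections, and made up 40.6% of WT and 60.5% of KO spots. In them Egln3 stood at 3.31 CPM in WT and 5.16 in KO, a ratio of 1.56 (1.29 to 1.88). In the remaining spots it stood at 44.4 and 34.2 CPM, a ratio of 0.769 (0.706 to 0.837). The remaining spots held 91.7% of all Egln3 UMIs in WT and 67.7% in KO, and they held 45.2% of all UMIs of the WT section and 24.0% of those of KO. With the KO levels of the 2 classes weighted by their WT shares, an alternative chosen after the data were seen, the Egln3 ratio was 0.834. The direction of the Egln3 difference therefore depends on which spots are compared.

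Egln3 stood 13.4-fold higher in the remaining spots than in the melanocytic-rich ones in the WT (11.4 to 15.9) and 6.62-fold higher in KO (5.84 to 7.52). Adm (3.50-fold and 2.53-fold) and Ankrd37 (3.04-fold and 1.59-fold) leaned the same way. The other 5 genes lay between 1.05 and 1.54 in WT and between 0.842 and 1.71 in KO. At least 2-fold higher were 3 of the 8 genes in the WT, against 10.3% of genes with at least 500 UMIs, and 2 of 8 in KO, against 7.38%. Car9 in WT stood at 124 CPM in melanocytic-rich and 161 in the remaining spots, a ratio of 1.30 (1.26 to 1.35), where Egln3 had 3.31 and 44.4.

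**Figure D2:**
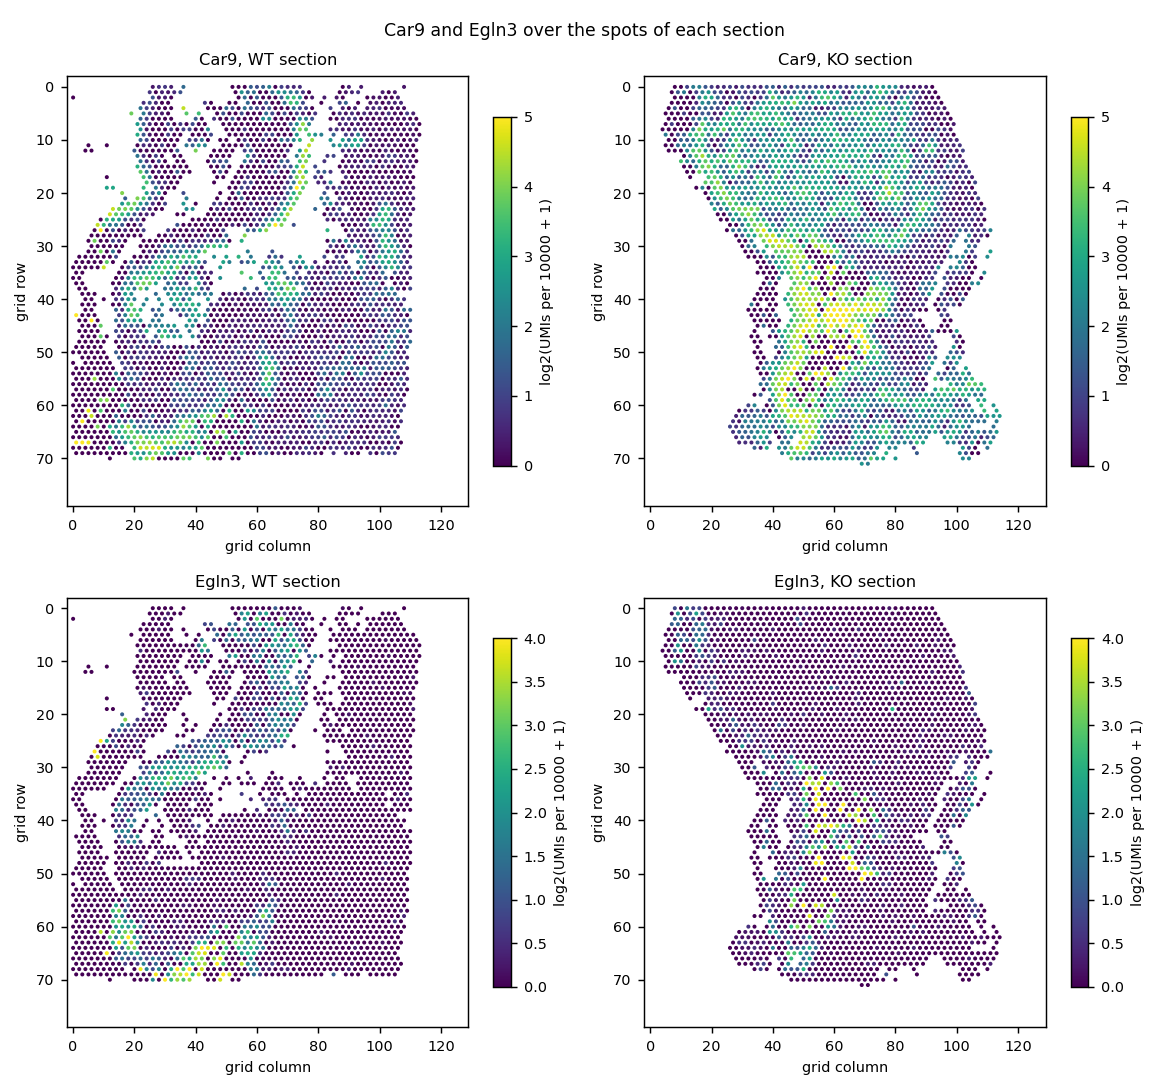
Spots of each section at their grid position, coloured by log2(UMIs per 10000 + 1) for Car9 (top) and Egln3 (bottom), with 1 scale per gene. Car9 forms bands in WT and a broad zone in KO; Egln3 is high in a few WT areas and, in KO, in a central patch where spots of high Car9 and spots with Car9 at 0 lie side by side.

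The spots richest in fibroblast markers separated the genes further. In the top 10% of WT spots by fibroblast share (307 spots, 12.04% of their UMIs from the fibroblast list) Egln3 stood at 140 CPM, against 15.3 in the rest, a ratio of 9.19 (8.36 to 10.1). In the same spots Car9 stood at 69.2 CPM against 144, a ratio of 0.479 (0.428 to 0.535). In the top 10% of KO spots (275 spots, only 2.76% fibroblast UMIs) Egln3 stood at 53.7 against 11.04 CPM, a ratio of 4.86, and Car9 at 243 against 394, a ratio of 0.617. The 2 top groups are not alike: 87.6% of the KO spots were also among the top 10% for macrophage markers, against 32.6% of the WT spots. At least 2-fold higher in the fibroblast-rich spots were Egln3, Adm, Ankrd37, Bnip3 and Ddit4 in WT, 5 of 8 against 12.8% of genes, and Egln3, Adm and Ankrd37 in KO, 3 of 8 against 11.5%. With 1 limit for both sections (at least 5.39% fibroblast UMIs, 574 WT spots), 3 of the 8 were at least 2-fold higher in WT: Bnip3 stood at 1.66, Ddit4 at 1.59 and Vegfa at 1.17, while Egln3 stood at 7.80. That limit left 8 KO spots, too few to read. Adm reached 3.55 and 4.402 and Ankrd37 5.31 and 2.07, in the order WT, KO.

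Egln3 was not limited to fibroblast-rich spots. In the top 10% by neutrophil markers it was 7.19-fold (WT) and 7.37-fold (KO) the rest, and by macrophage markers 2.62-fold and 5.10-fold. In WT spots rich in fibroblast but not macrophage markers (207 spots) Egln3 stood at 168 CPM, and in those rich in macrophage but not fibroblast markers (207 spots) at 32.0 CPM. These lists share spots and depth, and which cells carried the Egln3 molecules was not tested.

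In the top 10% by smooth muscle and pericyte markers Egln3 was 3.70-fold (WT) and 2.94-fold (KO) the rest, by skeletal muscle markers 2.86-fold and 3.59-fold and by erythroid markers 2.64-fold and 3.45-fold. By adipocyte markers it was 1.22-fold and 2.11-fold. By endothelial markers it was lower than the rest in WT, at 0.765-fold (0.620 to 0.935), and 2.01-fold in KO. Egln3 also stood high in spots of low depth, a split chosen after the maps were seen. Spots under 5000 UMIs (395 in the WT, 356 in KO) held 0.641% and 0.717% of all UMIs but 7.97% and 11.4% of Egln3 UMIs. Egln3 there stood at 272 CPM in the WT, from 155 UMIs, and at 192 in KO, from 130 UMIs, or 13.4-fold and 17.7-fold the deeper spots. Of the other 7 genes, Adm and Ankrd37 reached 6.30-fold and 6.18-fold in WT and 3.46-fold and 3.75-fold in KO. The remaining 5 lay between 1.45 and 3.51 in WT and between 1.06 and 2.62 in KO. At least 2-fold higher in these spots were 7 of 8 genes in the WT, against 10.4% of genes, and 4 of 8 in KO, against 11.3%. In the same spots neutrophil markers were 15.3-fold and 21.9-fold higher, melanocytic markers 0.456-fold and 0.370-fold, and 15 genes of other organs, a measure of probe background, 3.05-fold and 4.22-fold. Among deeper spots alone the fibroblast-rich 10% still gave Egln3 ratios of 10.5 and 6.12, and the neutrophil-rich 10% gave 6.94 and 5.66. The KO over WT log2 ratio of Egln3 was -0.91 over deeper spots and -0.85 over all.

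**Figure D3:**
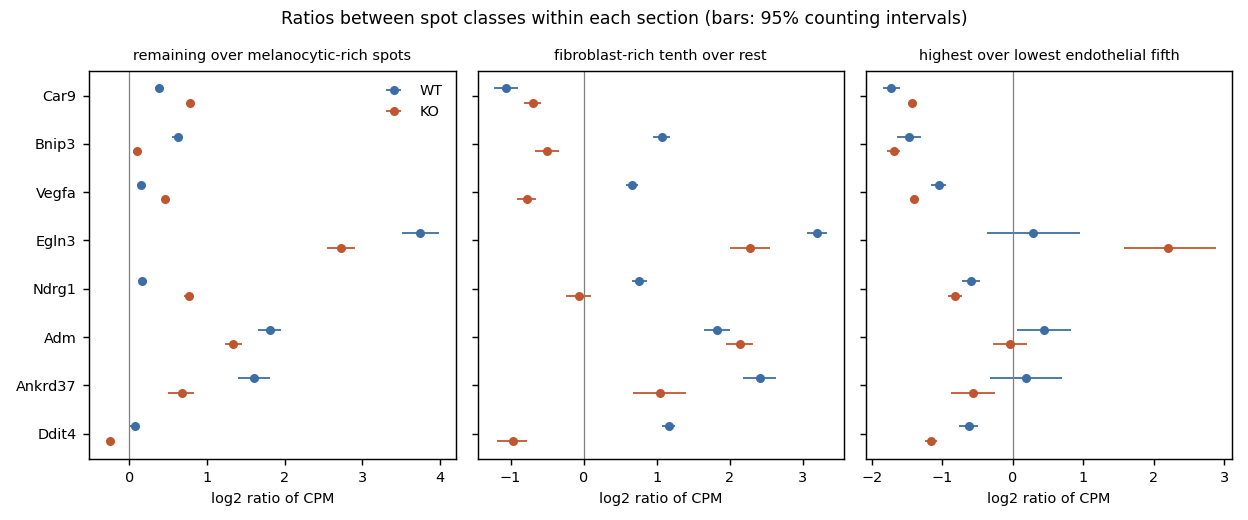
Log2 ratio of CPM for each gene between spot classes within a section, WT in blue and KO in orange, with bars for the 95% counting interval. Left, remaining over melanocytic-rich spots; middle, the fibroblast-rich 10% over the rest; right, the endothelial-rich over the endothelial-poor group. Egln3 is farthest to the right in every panel for the KO section, with ratios of 6.62, 4.86 and 4.61; in WT it is so in the left and middle panels (13.4 and 9.19).

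Over the 2671 WT and 2390 KO spots of at least 5000 UMIs, 5 genes (Car9, Bnip3, Vegfa, Ndrg1 and Ddit4) were high in the same spots. Correlations are Pearson's r of log2(UMIs per 10000 + 1), and the spots share a library, depth and neighbours, so no p is given. Car9 had r = 0.65 with Vegfa in WT and 0.85 in KO, and 0.65 and 0.79 with Bnip3. Bnip3 and Vegfa had 0.63 and 0.79. Ndrg1 had 0.47 to 0.56 with Car9, Bnip3 and Vegfa in WT and 0.60 to 0.66 in KO, and Ddit4 0.37 to 0.53 and 0.63 to 0.70.

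Egln3 followed Car9 weakly, with r = 0.24 in WT and 0.17 in KO. In the WT section it was closer to Bnip3 (0.45), Adm (0.42) and Ndrg1 (0.41), and its median r with the other 7 was 0.38, above the median of 0.32 among those 7. In the KO section its median was below theirs, at 0.17 against 0.26, with 0.10 for Bnip3 and 0.08 for Ddit4. Adm and Ankrd37, with few UMIs, were as weakly tied to Car9 as Egln3 was (Adm 0.15 and 0.20, Ankrd37 0.08 and 0.22). When each gene was thinned to the lowest total among the 8 in its section, so that counting noise is alike, the median among the 7 was 0.11 in WT and 0.13 in KO, and that of Egln3 was 0.18 and 0.15. In this setting the median of Egln3 was not below that of the 7 in either section. Thinning also took the highest r of Car9 in KO from 0.85 to 0.25, so this setting can hardly show a gap between medians. With each spot and its neighbours summed, the median of Egln3 was 0.63 against 0.55 in WT and 0.31 against 0.48 in KO. The part of low counts in the KO value of Egln3 therefore stays undecided.

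**Figure D4:**
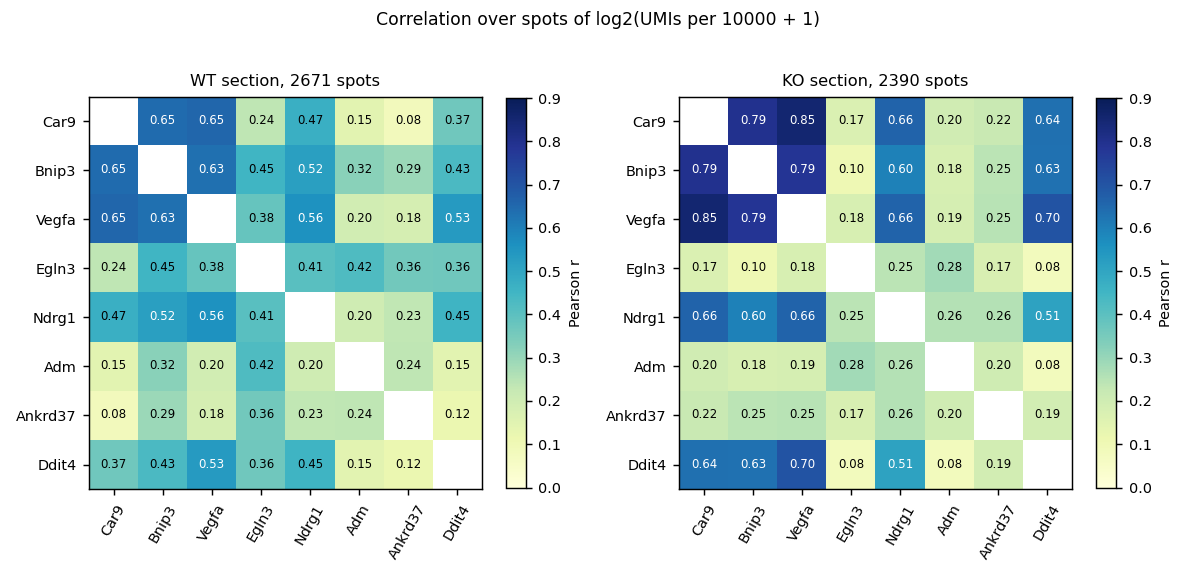
Pearson's r over spots of at least 5000 UMIs for each pair of the 8 genes, WT on the left (2671 spots) and KO on the right (2390 spots), darker for higher r. Car9, Bnip3 and Vegfa form the block of highest r (0.63 to 0.65 in the WT, 0.79 to 0.85 in KO), and the row of Egln3 is paler in KO.

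The genes most like Car9 and Egln3 were different. Among genes with at least 500 UMIs, Car9 was closest in WT to Ero1l, an oxidase of the endoplasmic reticulum (r = 0.71), Aire (0.71), Bsg, a partner of lactate transporters (0.70), and the glycolytic enzymes Gpi1 (0.69) and Pkm (0.66). In the KO section it was closest to Bsg (0.86), Gpi1 (0.84), Pkm (0.83), Ero1l (0.83) and the glucose transporter Slc2a1 (0.81). Among the genes closest to Egln3 in WT were Ndufa4l2, a mitochondrial protein (0.68), the arginase Arg1 (0.65), Rarres2 (0.63) and Timp1 (0.61). Among those closest to it in KO were Arg1 (0.51), Fbln2 (0.50), Bgn (0.46) and S100a6 (0.45), of which Fbln2 and Bgn encode matrix proteins. With Car9 these genes had r between -0.08 and 0.20 in either section. Arg1 stood at 273 CPM in WT and 24.4 in KO and Ndufa4l2 at 92.1 and 23.0, whereas Ero1l stood at 104 and 256.

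Bnip3 was closest in WT to Slc2a1 (0.71), Pkm (0.62) and Fam162a (0.61), and in KO to Gpi1, Bsg and Pkm (0.77 to 0.78). Vegfa was closest in WT to Bsg (0.66), Slc2a1 and Gpi1, and in KO to Bsg (0.83), Gpi1 and Ero1l. Ndrg1 was closest to Slc2a1 (0.54), Bsg and Fam162a in WT and to Ero1l (0.67), Slc2a1 and Bsg in KO. Ddit4 was closest to the metallothioneins Mt1 (0.51) and Mt2 (0.48) and to Bsg in WT, and to the transcription factor Bhlhe40 (0.69), Gpi1 and Pkm in KO. Adm was closest to Rarres2 (0.50), Fosl1 and Plac8 in WT and to Rarres2 (0.44), the matrix gene Fn1 and Zyx in KO. Ankrd37 was closest to Arg1 (0.47), Rarres2 and Ndufa4l2 in WT and to Ero1l (0.25), Slc2a1 and Anxa2 in KO. Slc2a1 had r = 0.54 with Egln3 in WT as well.

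Car9, Bnip3, Vegfa, Ndrg1 and Ddit4 were lower where endothelial markers were higher, in both sections. Melanocytic-rich spots of at least 5000 UMIs (1224 WT, 1648 KO) were split into 5 groups of equal size by their share of endothelial UMIs, with the melanocytic share between 5.45% and 5.48% in every WT group and between 5.63% and 5.84% in every KO group. From the endothelial-poor to the endothelial-rich group, Car9 stood at 254, 137, 84.7, 79.7 and 76.9 CPM in WT and at 507, 421, 334, 255 and 189 in KO. The high over low ratio was 0.303 (0.278 to 0.330) in WT and 0.373 (0.357 to 0.390) in KO. In the WT section most of the difference lay between the lowest 2 groups, and in KO Car9 was lower in each next group. In KO this was not particular to endothelial markers. Over the same KO spots Car9 had r = -0.38 with the endothelial list and -0.33 with the fibroblast, T cell, pericyte and erythroid lists. It had -0.08 with the neutrophil list. In WT it had -0.29 with the endothelial, 0.25 with the fibroblast and 0.31 with the erythroid list. With log2 UMIs per spot Car9 had r = -0.37 in WT and -0.33 in KO.

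Bnip3 had high over low ratios of 0.362 and 0.310, Vegfa 0.482 and 0.380, Ndrg1 0.663 and 0.565, and Ddit4 0.648 and 0.448, each in the order WT, KO. Egln3 went the other way in KO, at 2.05, 3.89, 4.81, 4.87 and 9.44 CPM, a ratio of 4.61 (2.998 to 7.37) from 25 and 140 UMIs in the outer groups. In the WT section it stood at 4.17, 3.64, 1.77, 2.18 and 5.10 CPM, and its ratio of 1.22 had an interval of 0.774 to 1.94. Adm had ratios of 1.36 and 0.974 and Ankrd37 1.14 and 0.677. Lower in the endothelial-rich group were 5 of 8 genes in the WT, against 49.3% of genes, and 7 of 8 in KO, against 43.6%. Median depth per spot was 30262 UMIs in the endothelial-poor WT group and 36559.5 in the endothelial-rich one, and 36844.5 and 45281 in KO. Over all spots of at least 5000 UMIs, r with the summed endothelial list was -0.21 and -0.39 for Car9, -0.37 and -0.45 for Bnip3, and -0.31 and -0.0022 for Egln3.

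T cell markers were set against the 8 genes within melanocytic-rich spots and over all spots. Melanocytic-rich spots were thinned to 5000 UMIs and split by whether a UMI of the 16 T cell genes remained, which left 112 spots with and 1112 without in the WT, and 317 and 1331 in KO. In the WT section Car9 stood at 128.6 CPM with and 123 without (ratio 1.05, 0.956 to 1.14), and in KO at 238 and 358 (0.664, 0.640 to 0.688). Bnip3 had ratios of 1.01 and 0.695, Vegfa 0.928 and 0.719, Ndrg1 0.924 and 0.851, and Ddit4 0.990 and 0.780. Egln3 had 1.15 in each section, with intervals of 0.639 to 1.93 and 0.893 to 1.47. Lower in spots with a T cell UMI were 3 of 8 genes in the WT, against 48.3% of genes, and 7 of 8 in KO, against 44.1%. In the KO section the spots with a T cell UMI were also richer in endothelial markers, at 536 against 435 CPM, while in WT these stood at 536 and 523. Over all spots of at least 5000 UMIs the median log2 ratio of the 7 genes other than Egln3 was -0.27 in WT, against 0.0080 in melanocytic-rich spots, and -0.42 in KO. In the top 10% of all spots by T cell markers Car9, Bnip3 and Vegfa were lower in both sections. They stood at 0.548, 0.691 and 0.572 of the rest in WT and 0.357, 0.350 and 0.391 in KO. Ndrg1 and Ddit4 were lower there too. Egln3 (1.62 and 3.54), Adm (1.72 and 1.65) and Ankrd37 (1.27 and 1.12) were higher, in the order WT, KO. The KO interval of Ankrd37 was 0.893 to 1.39. Only 5.86% of these spots in WT and 7.27% in KO were melanocytic-rich. The difference between the sections was not tested.

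Car9, Bnip3 and Vegfa were lower in the interior than in the rim in WT and higher there in KO. Rim spots lie at most 2 grid steps from an empty position or the frame, and made up 1364 of the WT and 761 of the KO spots. Car9 stood at 195 CPM in the rim and 108 in the interior of the WT section (interior over rim 0.554, 0.535 to 0.574), and at 352 and 402 in KO (1.14, 1.11 to 1.17). By steps from the edge (1 to 2, 3 to 4, 5 to 7, 8 to 10, 11 or more) Car9 stood at 195, 122, 101, 82.8 and 119 CPM in WT and at 352, 446, 321, 458 and 402 in KO, with no steady course in the latter. The KO values of Car9 and Vegfa rest on the definition of the edge. The log2 ratio of Car9 was 0.19, or 0.02 when the frame did not count as edge and -0.02 with a rim of 4 steps. That of Vegfa, 0.25, was 0.08 and 0.04 in these settings, and that of Bnip3, 0.50, was 0.38 and 0.35.

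Bnip3 had interior over rim ratios of 0.711 in WT and 1.42 in KO, Vegfa 0.788 and 1.19, and Ddit4 0.966 (0.926 to 1.01) and 1.34. Ndrg1 had 0.819 and 0.996, Adm 0.827 and 0.786, and Ankrd37 0.846 and 1.001. Egln3 was lower inside in both, at 0.819 (0.748 to 0.897) and 0.631 (0.557 to 0.716), with 24.7, 30.4, 17.6, 7.60 and 13.1 CPM from the edge inward in WT and 16.9, 14.6, 11.8, 11.1 and 5.60 in KO. With equal weight per spot, which raises the shallow spots, the log2 interior over rim ratio of Egln3 turned from -0.29 to 0.20 in WT and from -0.66 to 1.17 in KO. That of Adm in KO turned from -0.35 to 0.43 within melanocytic-rich spots. Lower inside were 8 of 8 genes in the WT, against 47.5% of genes, and 3 of 8 in KO, against 49.9%. Fibroblast markers made up 1.602% of UMIs in the outermost WT spots and 0.192% in the innermost.

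**Figure D5:**
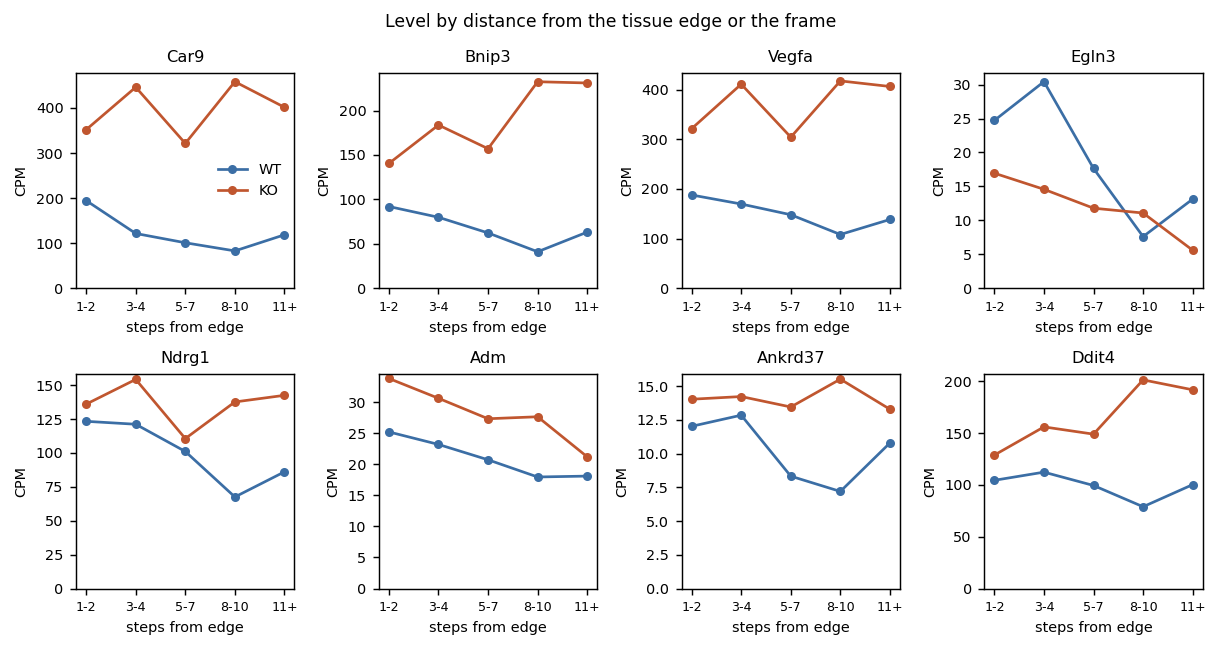
CPM of each gene by grid steps from the nearest position without tissue or the frame, in 5 bins, WT in blue and KO in orange, with each axis from 0. Egln3 is the only one of the 8 genes with WT values above KO values, in 4 of the 5 bins; Car9 runs from 195 to 119 CPM in WT and from 352 to 402 in KO.

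Moran's I measures how alike neighbouring spots are, with values near 0 for no likeness. In the authors' deposited table Car9 had 0.446 in the WT (rank 740 of 19296 genes) and 0.473 in KO (rank 356 of 19339). In the authors' deposited table Egln3 had the highest value of the 8 in WT, 0.556 (rank 276), and 0.252 in KO (rank 2866). The other 6 genes lay between 0.196 (Ankrd37) and 0.466 (Vegfa) in WT and between 0.0761 (Ankrd37) and 0.389 (Vegfa) in KO of the authors' deposited table. The median over all genes listed in the authors' deposited table was 0.0614 and 0.0496. Egln3 had 1945 and 1145 UMIs, and the part of depth in these values was not tested.

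The correlation of a gene with itself between spots a fixed distance apart shows how far its zones reach. Car9 had r = 0.70 at 1 grid step, 0.33 at 3 and 0.04 at 8 in WT, and 0.73, 0.37 and 0.15 in KO. Egln3 had 0.67, 0.49 and 0.17 in WT and 0.37, 0.21 and 0.08 in KO. At 3 steps Egln3 thus had the highest value of the 8 in WT, followed by Bnip3 (0.38) and Adm (0.38).

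Of the 8 other oxygen-sensing genes, 5 had a KO over WT ratio above 1, against 51.7% of genes, and none reached 2-fold, against 0.839%, and their median log2 ratio was 0.30 (0.08 with TMM factors). Egln1, the hydroxylase that sets HIF levels in most cells, stood at 122 CPM in WT and 186 in KO (1.53), and its r with Car9 was 0.50 and 0.68. Egln2, a further hydroxylase, stood at 80.9 and 69.0 CPM (0.854). Hif1a stood at 207 and 244 CPM (1.18), Arnt at 73.0 and 93.2 (1.28) and Vhl at 49.6 and 65.6 (1.32). Epas1, the HIF2 alpha subunit common in endothelial and myeloid cells, stood at 30.8 and 16.9 CPM (0.548). Hif1an stood at 38.6 and 37.7 CPM (0.977), and Hif3a had 43 and 89 UMIs. The r of Egln3 with Car9 was 0.24 and 0.17. With TMM factors Hif1a had a ratio of 1.01.

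A list of 28 other HIF targets, of which 25 were counted, held members on both sides. Ratios above 1 were found for 15 of the 25, against 51.7% of genes, at least 2-fold higher for 4, against 0.839% of genes, and at least 2-fold lower for 5, against 5.06%, with a median log2 ratio of 0.32 (0.10 with TMM factors). Ero1l was highest, at 104 and 256 CPM (2.47). With TMM factors, under which 0.569% of genes were at least 2-fold higher, it was the 1 of the 4 that stayed so, at 2.12. Lox, an enzyme that crosslinks collagen, was lowest, at 130 and 15.4 CPM (0.118), and its r was 0.58 with Egln3 and -0.02 with Car9 in WT. Of the 25 targets, 13 in WT and 16 in KO had a higher r with Car9 than with Egln3. The share of all genes that did so was not computed, so these counts are not read further. Egln3 also had fewer UMIs (1945 in WT and 1145 in KO) than Car9 (12460 and 36880), and counting noise lowers r.

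Receptors for the secreted members were measured too. All 8 receptor genes for VEGF and adrenomedullin had a ratio below 1, against 48.3% of genes, from 0.641 for Nrp1 to 0.991 (0.980 to 1.002) for Nrp2. Their median log2 ratio was -0.27, and the endothelial list had a ratio of 0.747. Within melanocytic-rich spots the median was 0.05, and 4 of the 8 were above 1, against 50% of genes. Targets of other known inducers of Ddit4 were counted as well. The 10 ATF4 targets all had a ratio below 1, against 48.3% of genes, from 0.403 for Slc7a11 to 0.99996 for Ddit3, with a median log2 ratio of -0.59. By class, 1 of the 10 was above 1 in melanocytic-rich spots, against 50% of genes. In the remaining spots 4 of the 10 were above 1, and the share of all genes there was not computed. Of 6 glucocorticoid targets 3 were above 1, against 51.7% of genes, with a median log2 ratio of 0.02. Among those with at least 500 UMIs they ran from 0.518 for Klf9 to 1.32 for Per1.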

How the data were processed

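The authors deposited raw UMI counts by gene and spot for both sections, which per the file headers come from Space Ranger 2.1.0. Moran's I is a score that the authors deposited for each gene. Space Ranger, featureCounts and mm10 appear in the submitters' processing notes, with no role given. Both libraries use 1 grid of 4992 positions and shared 2138 spot barcodes.

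UMIs were summed over spots and scaled to CPM. Ratios carry exact conditional binomial (Clopper-Pearson) 95% intervals, for counting error only. With 1 section per genotype, no p-value was computed. Probe counts are not set against length, so no level was compared between genes. The steps were tested on simulated data. Alternatives included edgeR 4.0.16 TMM factors (R 4.3.3, factors 0.927 WT, 1.08 KO), median-of-ratios factors, other spot sets and thinning.

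The members and lists were chosen with earlier results of these data known. All members were named, with the 5 genes most correlated with Car9 and Egln3, the 3 most correlated with each other member, every oxygen-sensing gene and the extremes of the other lists among genes with at least 500 UMIs; 1 gene that this rule names is not reported here. Sequences and positions are RefSeq's (GRCm38.p6); cores were searched on both strands. Spots under 5000 UMIs were left out of correlations.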

Additional observations from a re-analysis of the deposited data

Results flagged for a closer look

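Car9, Bnip3 and Vegfa pointed in opposite directions in the 2 sections when interior and rim were compared. The interior over rim ratio of Car9 was 0.554 in WT and 1.14 in KO, that of Bnip3 0.711 and 1.42, and that of Vegfa 0.788 and 1.19. With the definition of the edge the KO values of Car9 and Vegfa moved to near 1, and that of Bnip3 stayed above 1. With 1 section per genotype the difference was not tested.

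In the fibroblast-rich 10% of spots, Bnip3 stood at 2.097-fold the rest in WT and 0.707-fold in KO, Vegfa at 1.58 and 0.582, and Ddit4 at 2.24 and 0.509. With 1 limit for both sections the WT values were 1.66, 1.17 and 1.59, and 8 KO spots are too few to read. Fibroblast UMIs made up 12.04% of these spots in WT and 2.76% in KO, so the groups compared are not alike, and the difference was not tested. Ddit4 was also slightly higher outside the melanocytic-rich spots in the WT (1.05) and lower there in KO (0.842), a difference that was not tested either.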

How the results depend on the processing

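The median log2 KO over WT ratio of the 8 genes (0.52) was 0.30 with TMM factors, 0.29 with median-of-ratios factors, 0.62 in interior spots, 0.36 in rim spots, 1.04 in melanocytic-rich spots, 0.63 in the remaining spots and 0.63 at WT class shares, the last added after the data were seen. The log2 ratio of Egln3 (-0.85) was -1.07 with TMM and -1.08 with median-of-ratios factors, -0.19 with equal weight per spot, -0.54 in rim spots, 0.64 in melanocytic-rich spots, -0.38 in the remaining spots and -0.26 at WT class shares. The median interior over rim log2 ratio of the 7 genes other than Egln3 was -0.47 in the WT with a rim of 4 steps, -0.44 in melanocytic-rich spots and -0.18 with equal weight. In the KO section it was 0.021 without the frame, -0.014 with a rim of 4 steps, 0.32 in melanocytic-rich spots and 0.73 with equal weight. The median pairwise correlation of the 7 was 0.11 (WT) and 0.13 (KO) with genes thinned alike, 0.55 and 0.48 with neighbours summed (both added after the data were seen) and 0.10 in KO with spots thinned to 5000 UMIs. That of Egln3 was 0.18 (WT) with genes thinned alike and 0.63 and 0.31 with neighbours summed. The endothelial contrast of the 7 was -0.81 in the WT with neighbours included and -0.81 in interior spots, and -1.65 (WT) and -1.49 (KO) over all spots of at least 5000 UMIs. The T cell contrast in the WT was -0.27 over those spots. Added after the data were seen, TMM factors took the genes with separate quadrants from 4 to 2 and the other HIF targets at least 2-fold higher from 4 to 1, and 1 limit for both sections took the genes at least 2-fold higher in fibroblast-rich WT spots from 5 to 3. The cause of these shifts was not tested. Over all alternatives 134 values moved and 77 did not. The signs that turned are those of Egln3 in melanocytic-rich spots and of the KO interior over rim median with a rim of 4 steps, that of the WT T cell contrast (from 0.0080), and those named beside single genes. Ndrg1 (from -0.0062 to 0.29 in melanocytic-rich spots and 0.73 with equal weight) and Ankrd37 (from 0.0010 to -0.099 without the frame) crossed 0 in the KO interior over rim comparison. No paired analysis was possible because each genotype has 1 section and no test was run. The number of sections limits every comparison between genotypes, and low counts limit Egln3, Adm and Ankrd37.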

Other observations

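Aire, known as a regulator of self-antigen expression in the thymus, was among the genes most like Car9 in WT (r = 0.71) and had r = 0.76 with it in KO. It had 2655 UMIs in WT and 12006 in KO, or 29.9 and 127 CPM, a ratio of 4.25 (4.07 to 4.43).

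Erythroid markers stood at 324 CPM in WT and 2198 in KO. In spots under 5000 UMIs they were 7.92-fold (WT) and 1.92-fold (KO) the level of deeper spots.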
